A study of Mus musculus with 60 samples.

Results

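Krüppel-like factors were followed in the mouse hippocampus after a single injection of an NMDA receptor antagonist. The 9 members were Klf2, Klf4, Klf6, Klf7, Klf9, Klf10, Klf13, Klf15 and Klf16, and every array probe with 1 of these symbols was taken, 17 of 45281 probes for 9 of the 19057 genes with a symbol of their own. Male C57BL/6J mice, 8 to 10 weeks old, received ketamine at 20 mg/kg, memantine at 15 mg/kg, phencyclidine (PCP) at 5 mg/kg or saline, all i.p., and naive mice of the same strain and age received nothing. The hippocampus was taken 1, 2, 4 or 8 h later, with RNA of 2 mice pooled on each array and 3 arrays in each of the 20 groups, 60 in all. Ketamine and PCP are dissociative drugs and memantine is a dementia drug, and each was given at 1 dose, so their values are set side by side here.

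Krüppel-like factors are transcription factors with zinc fingers at the C-terminal end that bind GC-rich sequences and CACCC boxes, which they share with the SP family. Klf2 and Klf4 are fast-responding genes, known in endothelium as targets of blood flow through the kinase ERK5 and MEF2 factors, and Klf4 is also one of the factors that turn fibroblasts into stem cells. Klf9 and Klf15 are known targets of the glucocorticoid receptor, which stress and injection can activate. Klf6 and Klf7 are known for neurite growth, Klf10 as an early gene of TGF-beta signaling, and Klf13 and Klf16, like Klf9, as factors that recruit the Sin3 repressor.

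The promoters of the genes that the comparison turns on, Klf2 and Klf4 on one side and Klf9 and Klf15 on the other, are shown to set out what each start site holds. They run from 250 bases before to 50 bases after the start, 5′ to 3′ on the strand of the gene, and come from RefSeq on GRCm38.p6. Klf2 lies at chr8:72318812-72319111 on the plus strand, Klf4 at chr4:55532426-55532725 on the minus strand, Klf9 at chr19:23140976-23141275 on the plus strand and Klf15 at chr6:90462326-90462625 on the plus strand. Capitals mark the half-site of the cAMP response element (TGACG, or CGTCA on the other strand), the E-box of clock factors (CACGTG) and the MEF2 element, searched on both strands.
Klf2: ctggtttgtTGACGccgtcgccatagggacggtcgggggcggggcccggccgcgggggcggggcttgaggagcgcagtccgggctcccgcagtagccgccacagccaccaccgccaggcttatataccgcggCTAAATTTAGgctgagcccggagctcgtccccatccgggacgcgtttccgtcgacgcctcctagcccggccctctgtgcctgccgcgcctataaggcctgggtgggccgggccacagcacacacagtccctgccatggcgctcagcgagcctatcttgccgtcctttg
Klf4: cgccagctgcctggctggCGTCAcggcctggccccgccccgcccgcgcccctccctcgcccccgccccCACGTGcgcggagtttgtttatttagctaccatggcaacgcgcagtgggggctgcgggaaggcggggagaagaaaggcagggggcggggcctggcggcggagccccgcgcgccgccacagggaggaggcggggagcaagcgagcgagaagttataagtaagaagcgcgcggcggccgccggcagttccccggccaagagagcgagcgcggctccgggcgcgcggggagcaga
Klf9: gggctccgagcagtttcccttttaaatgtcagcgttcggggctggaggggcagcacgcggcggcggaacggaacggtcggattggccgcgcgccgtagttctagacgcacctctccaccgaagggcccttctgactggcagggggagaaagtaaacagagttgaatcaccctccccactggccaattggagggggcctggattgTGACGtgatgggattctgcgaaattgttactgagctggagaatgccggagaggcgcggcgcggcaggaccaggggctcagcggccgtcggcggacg
Klf15: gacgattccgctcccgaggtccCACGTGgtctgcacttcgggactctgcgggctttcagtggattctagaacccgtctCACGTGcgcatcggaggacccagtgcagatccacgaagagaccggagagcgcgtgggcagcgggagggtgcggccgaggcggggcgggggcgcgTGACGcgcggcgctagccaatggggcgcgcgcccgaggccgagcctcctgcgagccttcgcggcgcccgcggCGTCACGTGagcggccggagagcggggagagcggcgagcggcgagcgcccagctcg
RefSeq promoters matched 7 of the 9 members, all but Klf10 and Klf16. The cAMP half-site stood in 5 of these 7, against 20.8% of all 32851 promoters of this length, and the E-box in Klf4, Klf6 and Klf15, against 7.15%. Klf15 held 3 E-boxes, of which 1 overlapped a cAMP half-site. The MEF2 element was found in Klf2, against 0.557% of all promoters. The glucocorticoid receptor half-site, TGTTCT, was in none of the 7, against 19% of all, and its whole element (AGAACA and TGTTCT, 3 bases apart) was in 3 of all the promoters. A CACCC box stood in 5 of the 7 and a GC box, GGGCGG, in 6, against 57.5% and 35.7%. Such matches are letters in a window and no record of binding, and a site outside the window is not seen.

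A level is the log2 normalized intensity of the gene's brightest probe, after background correction and quantile normalization, and probes of different genes bind with different strength, so levels do not order the genes by abundance. Klf9 had a mean level of 13.41 over the 60 arrays, above 99.1% of all probes. The mean level was 11.62 for Klf13, 11.41 for Klf7, 10.11 for Klf16, 9.83 for Klf6 and 8.82 for Klf2. It was 7.37 for Klf10, 7.31 for Klf4 and 7.11 for Klf15, which leaves these 3 with little signal over background. A probe was called near background below a level of 6.98, the 95th percentile of 1501 probes for olfactory and vomeronasal receptors, and the main probes of all 9 members lay above it, Klf15 by only 0.13.

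Microarray levels in a tissue extract do not tell fewer cells of a type from less RNA in each cell. Hippocampal neuron markers were present, with 1 of 9 near background. Ketamine 2 h replicate 2 stood apart, with striatal neuron markers at a mean level of 10.67, against 8.02 to 8.52 on the other 59 arrays, and hippocampal neuron markers at 9.85, against 10.16 to 10.62. Without it the ketamine difference at 2 h was 0.00 for Klf2, 0.05 for Klf4, 0.03 for Klf9 and 0.10 for Klf15, in place of -0.03, 0.05, 0.10 and 0.15. Of 10 endothelial markers, the cells best known for Klf2 and Klf4, 1 was near background, and their mean level at 1 h was 8.98 to 9.24 on saline arrays and 8.90 to 9.28 on drug arrays, so these ranges overlapped. The mean of 8 choroid plexus markers, a tissue next to the hippocampus, ran from 9.02 to 11.01 on saline arrays and from 7.56 to 11.14 on drug arrays. At 1 h it was 10.03 to 11.01 with saline, 7.83 to 10.23 with ketamine, 7.99 to 11.07 with memantine and 7.56 to 10.14 with PCP. On 7 arrays (3 PCP, 2 saline, 1 memantine and 1 naive, on 2 of the 10 slides) the 95th percentile of intensity was 4.28 to 7.75 times the 5th, against 12.3 to 32.1 times on the other 53. These arrays of high background include memantine 8 h replicate 3. Those of PCP are 1 h replicate 1, 4 h replicate 2 and 8 h replicate 2. The rest are saline 2 h and 4 h replicate 3 and naive 8 h replicate 1. Some of the results that hold them are given with and without them, and the others with them only.

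Klf2 had the widest span of group means of the 9 members, 1.62 over the 20 groups, and its mean level stood above saline 1 h after each drug. At 1 h the level was 8.81, 8.56 and 8.75 on the saline arrays. It was 8.91, 9.46 and 9.67 with ketamine, 9.78, 9.56 and 9.66 with memantine and 9.32, 9.92 and 9.50 with PCP. All 9 drug arrays thus stood above all 3 saline arrays, which held for 0.347% of all probes and for 1 of the 9 members. Ketamine 1 h replicate 1 was the closest to saline.

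The mean difference of Klf2 from saline at 1 h was 0.64 (SE 0.24, n = 3 arrays a group) with ketamine, 0.96 with memantine and 0.87 with PCP, with the same SE. These are 1.56-, 1.95- and 1.83-fold levels. None of the 3 passed limma's test after Benjamini-Hochberg adjustment over all probes (adjusted p = 1.00, 1.00 and 0.997), although the 95% intervals of single differences, 0.16 to 1.12, 0.48 to 1.44 and 0.39 to 1.35, lay above 0. The 3 comparisons share their saline arrays, so a low saline level would raise all of them. Klf2 is also among the genes that the study picked from arrays that include these, so its difference here is not independent evidence.

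With memantine the level of Klf2 stayed high at 2 h. The 3 arrays were at 9.43, 9.34 and 9.98, against 8.85, 8.82 and 8.73 with saline, with no overlap. The difference was 0.78 (SE 0.24, interval 0.30 to 1.26, limma adjusted p = 0.196). Memantine stood above saline without overlap at 2 h in 2 of the 9 members, Klf2 and Klf9, and in 6.42% of all probes. At the same time ketamine differed from saline by -0.03 and PCP by 0.15.

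The 11 highest Klf2 levels of the 60 arrays were all on drug arrays of 1 or 2 h. By 4 h the ketamine and memantine arrays overlapped the saline arrays. The PCP arrays were at 8.48, 8.57 and 8.35, against 8.97, 8.73 and 8.60 with saline. These did not overlap, and the share of all probes for which that held was not counted. At 4 h the differences from saline were -0.25 with ketamine, 0.15 with memantine and -0.30 with PCP, and at 8 h they were -0.11, -0.79 and -0.25. The memantine arrays at 8 h were at 8.72, 8.36 and 7.05, against 9.12, 8.82 and 8.56 with saline. The lowest of them is replicate 3, an array of high background and the lowest Klf2 level of all 60. Without it the difference at 8 h was -0.29 (limma adjusted p = 1.00) in place of -0.79 (adjusted p = 0.63). Without memantine 8 h replicate 1 it was -1.13, at an adjusted p of 0.0315. Endothelial markers had a mean level of 9.18 to 9.61 on the memantine arrays at 8 h and 8.93 to 9.18 on the saline arrays, and their part in this difference was not tested.

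**Figure D1:**
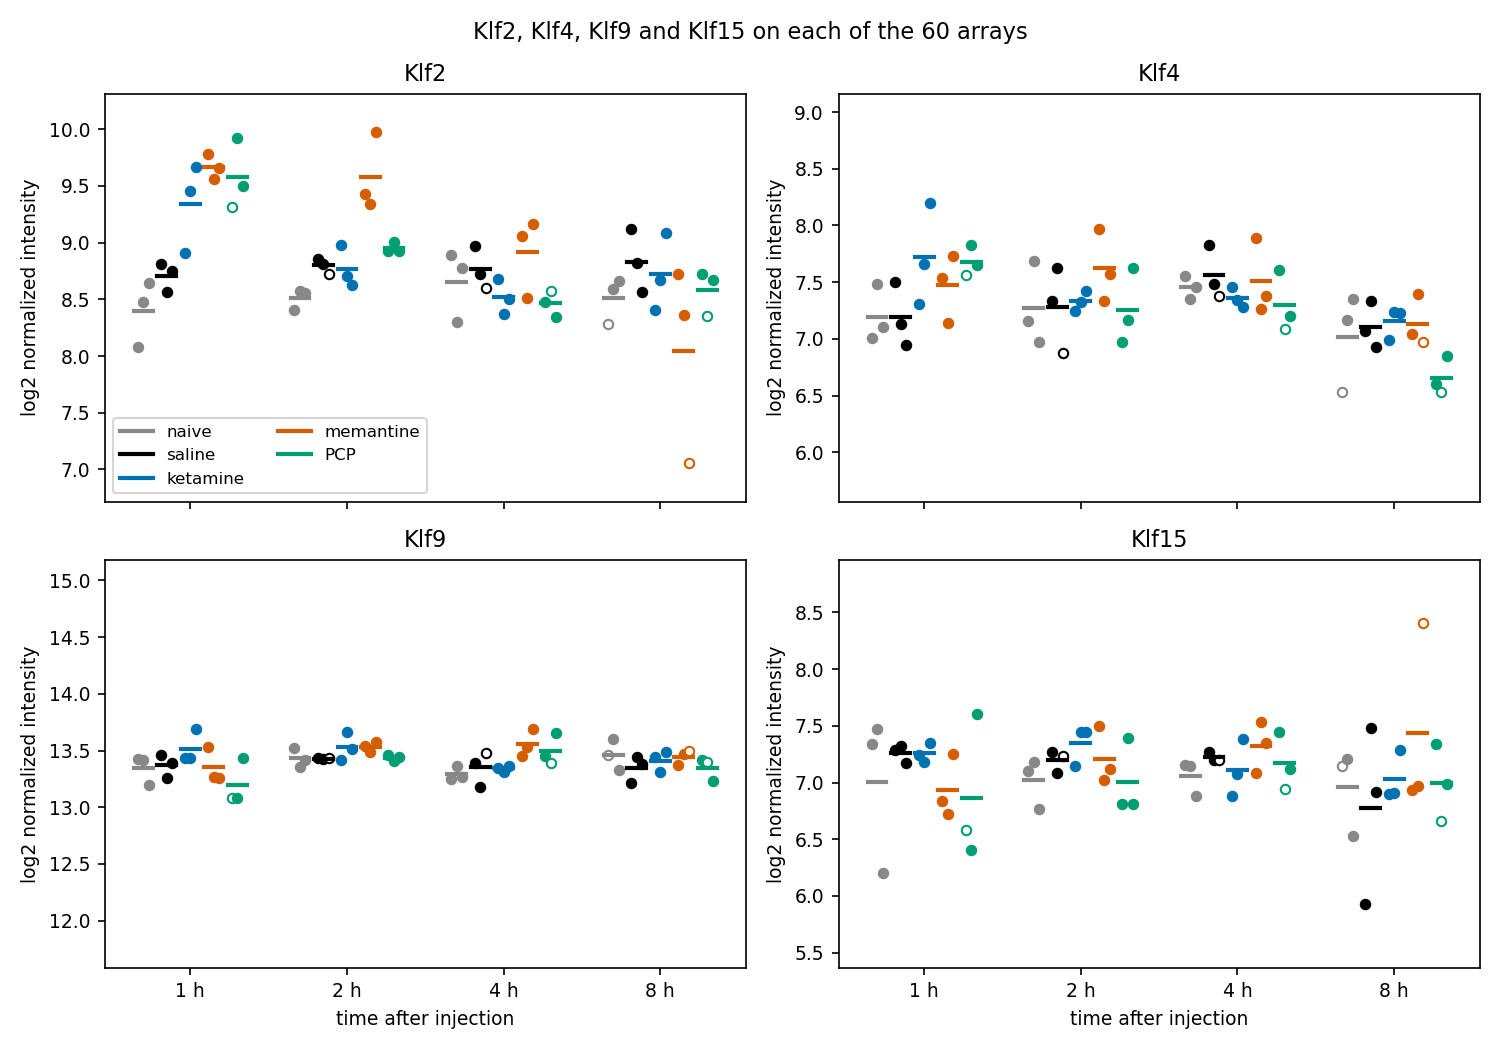
Level of Klf2, Klf4, Klf9 and Klf15 on each of the 60 arrays (vertical axis, log2 normalized intensity, the same span in each panel) by time after injection, with bars at group means of 3 arrays and open points for the 7 arrays of high background. Klf2 stands at 8.91 to 9.92 on the 9 drug arrays of 1 h against 8.56 to 8.81 on saline arrays, while Klf9 stays between 13.08 and 13.69 throughout.

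From 1 to 8 h Klf2 fell with memantine, and in saline and naive mice its mean level differed by little. The mean level in saline mice was 8.71 ± 0.13 (SD, n = 3) at 1 h and 8.83 ± 0.28 at 8 h, and in naive mice 8.40 ± 0.29 and 8.51 ± 0.20. With memantine it went from 9.67 ± 0.11 to 8.04 ± 0.88, a difference of -1.62 (SE 0.24, limma adjusted p = 0.000317). This was the 1 call of 45 member tests of 8 h against 1 h within a treatment, against 0.0172% of all tests. The difference was -1.13 (adjusted p = 0.038) without memantine 8 h replicate 3.

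With PCP Klf2 differed by -1.0 between 8 and 1 h (adjusted p = 0.18) and by -1.11 between 4 and 1 h (adjusted p = 0.0743), and with ketamine by -0.62 and -0.83. These differences did not pass. Without memantine 8 h replicate 3, an array of another group that enters the shared error, the same differences had an adjusted p of 0.0227 for 8 h and 0.00428 for 4 h. Without all 7 arrays of high background the PCP difference for 8 h was -1.04 and did not pass (adjusted p = 0.128), and that for 4 h was -1.33 (adjusted p = 0.0156). Over 10 alternative settings, this one included, the PCP difference for 8 h passed in 0 and that for 4 h in 5. The latter missed, for example, with slide as a fixed or a random block (adjusted p = 0.735 and 0.0880).

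Averaged over saline and the 3 drugs, Klf2 differed from 1 h by -0.30 at 2 h, -0.66 at 4 h (SE 0.12, adjusted p = 0.00638) and -0.78 at 8 h (adjusted p = 0.00032). It was the 1 member of 9 called for the time factor (adjusted p = 0.000444), against 0.261% of all probes, and the 1 member of 9 lower at 4 h, against 0.0905%. Since mice were injected and killed in the course of a day, time since injection and time of day run together in these averages. No member was called for the drug by time interaction (0 of 9, and 0% of all probes, by limma's F test). At an unadjusted p under 0.05 Klf2 was the 1 of 9, against 2.76% of all probes. The memantine difference of Klf2 at 8 h minus that at 1 h, a contrast added after the data were seen, was -1.75 (SE 0.34, adjusted p = 0.194), and -1.25 without memantine 8 h replicate 3.

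Same-slide arrays bear on Klf2 for ketamine and PCP, since 1 slide at each time held that drug with saline. The drug array exceeded its saline neighbour at 1 h by 0.16 with ketamine and 0.69 with PCP. At 8 h the difference was -0.15 and -0.45. No slide held memantine and saline of the same time. With slide as a block in the fit the 1 h differences were 0.43 (SE 0.26), 0.99 (SE 0.29) and 0.84 (SE 0.26) for ketamine, memantine and PCP.

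Saline against naive mice asks what injection alone does. Averaged over the 4 times, Klf2 differed by 0.26 (SE 0.09, interval 0.07 to 0.44, limma adjusted p = 1.00). At single times the differences were 0.31, 0.29, 0.11 and 0.32, all in the same direction. Klf4 differed from naive mice by -0.01 to 0.11 at single times, Klf9 by -0.12 to 0.06 and Klf15 by -0.19 to 0.25, so the pair known for induction by glucocorticoids did not pass after injection either. No member was called for saline against naive (0 of 45 tests at single times and as their mean), with 0.00133% of all tests called. At an unadjusted p under 0.05 the single times gave 1 of 36 member tests, for Klf6 at 8 h, against 4.99%. Against naive mice in place of saline, Klf2 was higher with memantine at 1 h by 1.27, at an adjusted p of 0.0238.

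Klf4, the close relative of Klf2, was lower at 8 h than at 1 h. Averaged over saline and the drugs the difference was -0.50 (SE 0.11, limma adjusted p = 0.0192). Klf2 and Klf4 were thus the 2 of 9 members lower at 8 h, against 0.135% of all probes. The time factor missed for Klf4 at an adjusted p of 0.0506. The size of the difference depended on the background step. It was -0.31 on the deposited log2 values and -0.33 without background correction, both past the threshold (adjusted p = 0.0161 and 0.0182). The call for 8 h was lost with the choroid plexus markers as a covariate (-0.45, adjusted p = 0.0547) and without ketamine 1 h replicate 3, saline 8 h replicate 3 or memantine 1 h replicate 3 (adjusted p = 0.0713, 0.0511 and 0.0538).

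The PCP arrays of Klf4 showed the widest span. They were at 7.56, 7.83 and 7.65 at 1 h and at 6.60, 6.53 and 6.84 at 8 h. All 3 arrays of 8 h lay below the near-background level of 6.98, so that group has only an upper bound. With the arrays of 8 h set to that level, Klf4 was 1.63-fold higher at 1 h than at 8 h, or 0.70 in log2. This value belongs to the main background step and takes no account of sampling error. It is no lower limit, since the deposited values and those without background correction gave smaller differences. The fitted difference was -1.02 (SE 0.22) and did not pass (adjusted p = 0.0949). It was -0.62 on the deposited log2 values, -0.65 without background correction and -1.37 with an offset of 16 (adjusted p = 0.0868, 0.0944 and 0.0880), and -1.06 without the arrays of high background (adjusted p = 0.167). It passed with slide as a fixed block (adjusted p = 0.00281) or a random one (adjusted p = 0.00771), among the brighter 50% of probes (adjusted p = 0.0409) and without naive 8 h replicate 1 (adjusted p = 0.0431). The average over saline and the drugs holds this group too, and PCP had the largest difference of the treatments in it. With the PCP arrays of 8 h set to the near-background level that average was -0.42 in place of -0.50. The saline arrays held 7.50, 7.13 and 6.94 at 1 h and 7.07, 7.33 and 6.93 at 8 h, and these overlapped, with a difference of -0.08.

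Against saline at 1 h, Klf4 differed by 0.53 with ketamine, 0.28 with memantine and 0.49 with PCP, with SE 0.22 and none past the adjusted threshold. The ketamine and memantine arrays overlapped the saline arrays, and the PCP arrays were at 7.56 to 7.83 against 6.94 to 7.50 with saline. For PCP at 1 h and at 8 h the share of all probes without overlap was not counted. The highest ketamine array was replicate 3 at 8.20, and without it the difference was 0.29. With the choroid plexus markers as a covariate the ketamine and PCP differences at 1 h were both 0.41. At 8 h the PCP arrays were at 6.53 to 6.84 and the saline arrays at 6.93 to 7.33. With the near-background level in place of the PCP arrays, saline was 1.10-fold higher under the main background step. Klf4 has 2 further probes. One, with a mean level of 7.19, was at -0.26 for 8 h against 1 h, and the other, at 6.91 and near background, at -0.16, so both lay on the same side and neither passed. On the first, the differences from saline were smaller than on the main probe or reversed. Its mean at 1 h was 7.38 with saline and 7.52, 7.24 and 7.52 with ketamine, memantine and PCP. At 8 h it was 7.12 with saline and 7.23 with PCP, so PCP did not lie below saline. The second was at 7.02 and 6.85 in these groups of 8 h.

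Of Klf9 and Klf15, the pair known for induction by glucocorticoids, Klf9 stayed within narrow limits. Klf15 was too imprecise to set against Klf2 and Klf4. Its 95% intervals for 8 h against 1 h within a treatment reached from -1.09 to 1.11, and no test compared the pairs. At 1 h Klf9 was at 13.46, 13.26 and 13.39 on the saline arrays. It was 13.43, 13.43 and 13.69 with ketamine, 13.53, 13.26 and 13.26 with memantine and 13.08, 13.09 and 13.43 with PCP, so all groups overlapped. Klf9 had the smallest SD within groups of the 9 members, 0.11, and its 20 group means spanned 0.36, against 0.30 for Klf16. The 12 differences from saline lay between -0.17 (PCP, 1 h) and 0.20 (memantine, 4 h), with 95% intervals reaching from -0.40 to 0.44. A change in Klf9 as large as that of Klf2 with memantine at 1 h lies outside these intervals.

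With memantine at 2 h Klf9 was at 13.54, 13.49 and 13.57, above all 3 saline arrays at 13.43, by a mean of 0.10 (SE 0.11). Averaged over the 4 times, memantine differed from saline by 0.10 (interval -0.04 to 0.24), ketamine by 0.08 and PCP by -0.00. From 1 to 8 h Klf9 differed by 0.15 with PCP, 0.09 with memantine, -0.11 with ketamine, -0.02 with saline and 0.12 in naive mice. None of these passed, nor did the difference with PCP between 4 and 1 h, 0.30 (interval 0.07 to 0.53, adjusted p = 0.904).

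Klf15 was dim and spread widely, with an SD within groups of 0.39 and 19 of the 60 arrays below the near-background level. At 1 h it was at 7.29, 7.32 and 7.17 with saline, 7.25, 7.18 and 7.35 with ketamine, 6.83, 6.72 and 7.25 with memantine and 6.58, 6.40 and 7.60 with PCP, so all drug groups overlapped saline. At 8 h it was at 6.93, 6.97 and 8.40 with memantine and at 5.93, 7.49 and 6.91 with saline. These arrays overlapped, and the difference of 0.66 (SE 0.30, limma adjusted p = 0.679) moved with single arrays. It was 0.18 without memantine 8 h replicate 3, the high-background array that holds the 8.40, 0.24 without saline 8 h replicate 1 and 1.02 without saline 8 h replicate 2. The other 11 differences of Klf15 from saline lay between -0.40 and 0.25, with standard errors of 0.30, so changes of moderate size in Klf15 were not detectable here.

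Averaged over the 4 times, the differences of Klf2, Klf4, Klf9 and Klf15 from saline were 0.28, 0.15, 0.10 and 0.11 with memantine, 0.06, 0.11, 0.08 and 0.07 with ketamine and 0.12, -0.06, -0.00 and -0.10 with PCP. None of 27 member tests of this mean passed, with 0.00957% of all tests called. No member was called for the drug factor (0 of 9, against 0.0199%). No member was called at a single time either (0 of 108 tests by limma, against 0.00755%). At an unadjusted p under 0.05 there were 11 of 108, against 4.64% of all tests, 5 for Klf2, 3 for Klf4, 2 for Klf6 and 1 for Klf15. Pairs of drugs at the same time gave 0 of 108 member tests and 0.000184% of all tests, and since doses differ nothing more is read from them.

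**Figure D2:**
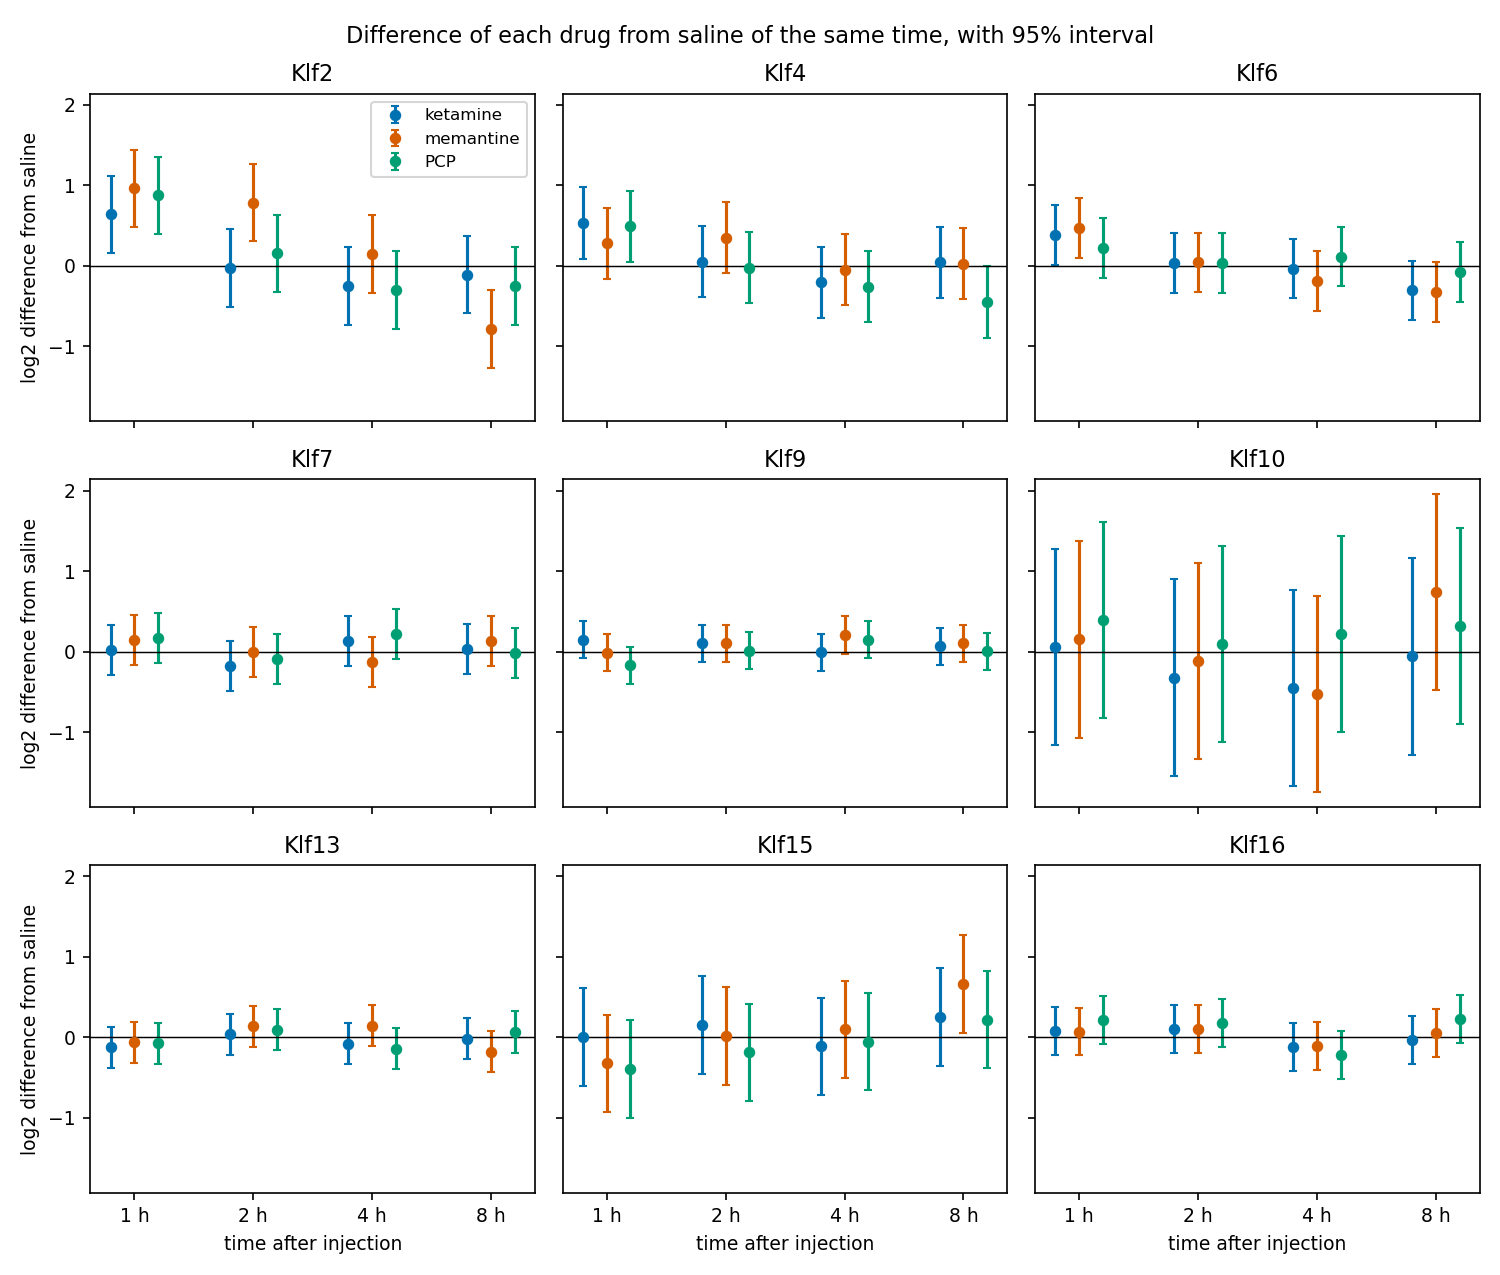
Difference of each drug from saline of the same time (vertical axis, log2, 3 arrays a group) for the 9 members at 1, 2, 4 and 8 h, with 95% intervals from the fit over 60 arrays. Klf2 lies above 0 with all 3 drugs at 1 h (0.64 to 0.96) and with memantine at 2 h, the Klf9 intervals stay within -0.40 and 0.44, and those of Klf10 reach -1.75 and 1.95.

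Klf6 and Klf7, the members known for neurite growth, had group means that spanned 0.56 and 0.48, and neither passed the adjusted test against saline. Klf6 at 1 h was at 9.72, 9.15 and 9.81 with saline, 10.11, 10.03 and 9.96 with memantine, and 9.98, 9.63 and 10.22 with ketamine. The ketamine arrays overlapped the saline arrays. The differences were 0.47 with memantine and 0.38 with ketamine (SE 0.18), and without saline 1 h replicate 2 they were 0.27 and 0.18. With saline Klf6 was higher than in naive mice at 8 h, at 10.17, 9.85 and 10.24 against 9.54, 9.49 and 9.55, a difference of 0.56 (limma adjusted p = 0.42) that was 0.37 with slide as a block. Memantine at 1 h and saline at 8 h did not overlap their controls, and the shares of all probes were not counted. Klf7 has 3 probes of similar level. On the main probe all 12 differences from saline lay between -0.18 and 0.22, and none reached an unadjusted p under 0.05. On the others memantine at 4 h averaged 11.14 and 11.05, against 11.43 and 11.31 with saline, which is outside that range.

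Klf13 and Klf16 belong, like Klf9, to the branch that recruits Sin3, and their SD within groups was 0.14 and 0.17. Over the 60 arrays Klf13 ran from 11.28 to 11.96 and Klf16 from 9.67 to 10.44. On these main probes their differences from saline lay between -0.18 and 0.15 and between -0.22 and 0.23. None of these 24 tests had an unadjusted p under 0.05. Each has 2 probes, and the dimmer one went outside these ranges. For Klf13 it averaged 10.40 with PCP and 10.18 with saline at 1 h, and 10.15 and 10.35 at 4 h. For Klf16 it averaged 8.27 with ketamine and 7.83 with saline at 2 h.

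The level of Klf10 moved with the array background. On the 7 arrays of high background its level was 8.35 to 9.82, above every one of the other 53 arrays, which held 6.29 to 8.18. At 2 h, for instance, the saline arrays were at 7.12, 6.29 and 9.12, of which the last is an array of high background. The spread within groups was 0.81, with 95% intervals of the differences from saline reaching -1.75 and 1.95. The other Klf10 probe was near background at a mean of 6.44 and held 5.76 to 6.53 on these 7 arrays, no higher than the 6.04 to 6.80 elsewhere. In contrast, Klf9 was at 13.08 to 13.50 on the 7 arrays.

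**Figure D3:**
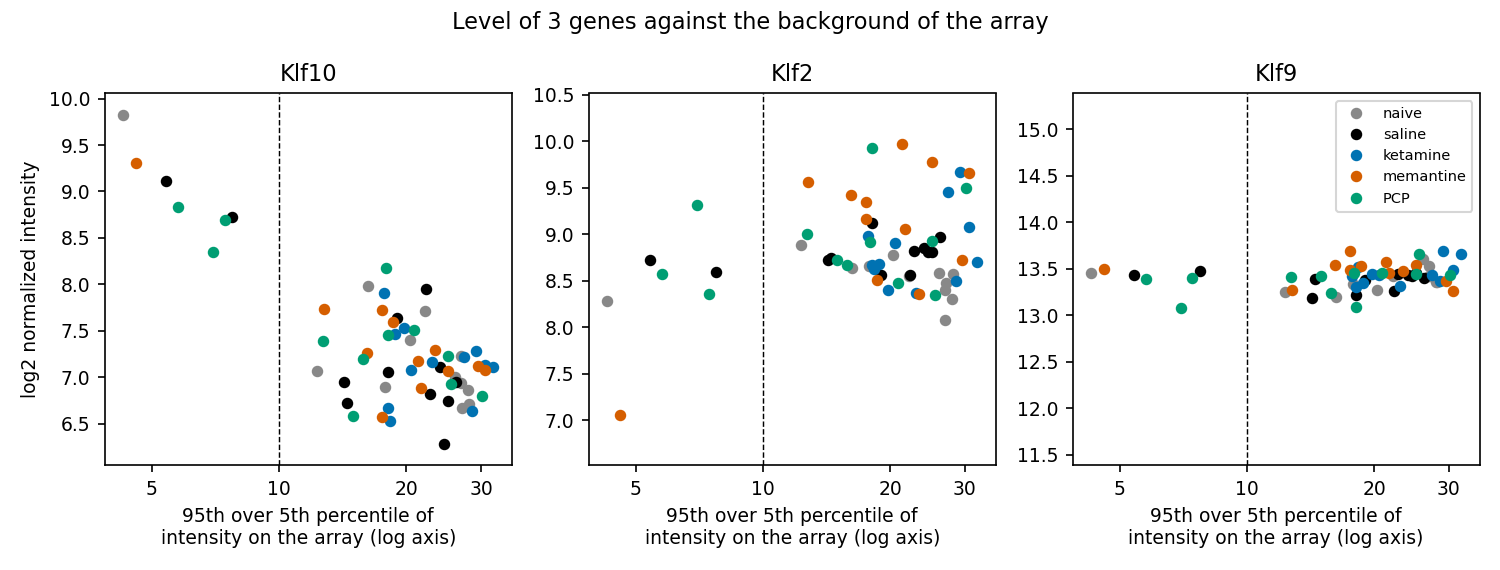
Level of Klf10, Klf2 and Klf9 (vertical axis, log2 normalized intensity) on each of the 60 arrays against the ratio of the 95th to the 5th percentile of intensity on that array (horizontal log axis), colored by treatment, with a dashed line at a ratio of 10. The 7 arrays left of the line hold the 7 highest Klf10 levels, 8.35 to 9.82, and 1 of them, memantine 8 h replicate 3, the lowest Klf2 level at 7.05.

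Across treatments, the differences between 8 and 1 h in Klf2 and Klf4 ran one way with all 3 drugs. Klf2 differed by -1.62, -1.0 and -0.62 with memantine, PCP and ketamine and by 0.12 and 0.11 with saline and in naive mice. Klf4 differed by -0.34, -1.02 and -0.57 with the drugs and by -0.08 and -0.18 in saline and naive mice. In the other direction, saline mice had more Klf6 at 8 h, a difference of 0.52 from 1 h (limma adjusted p = 1.00), and its drug groups lay between -0.28 and 0.23.

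**Figure D4:**
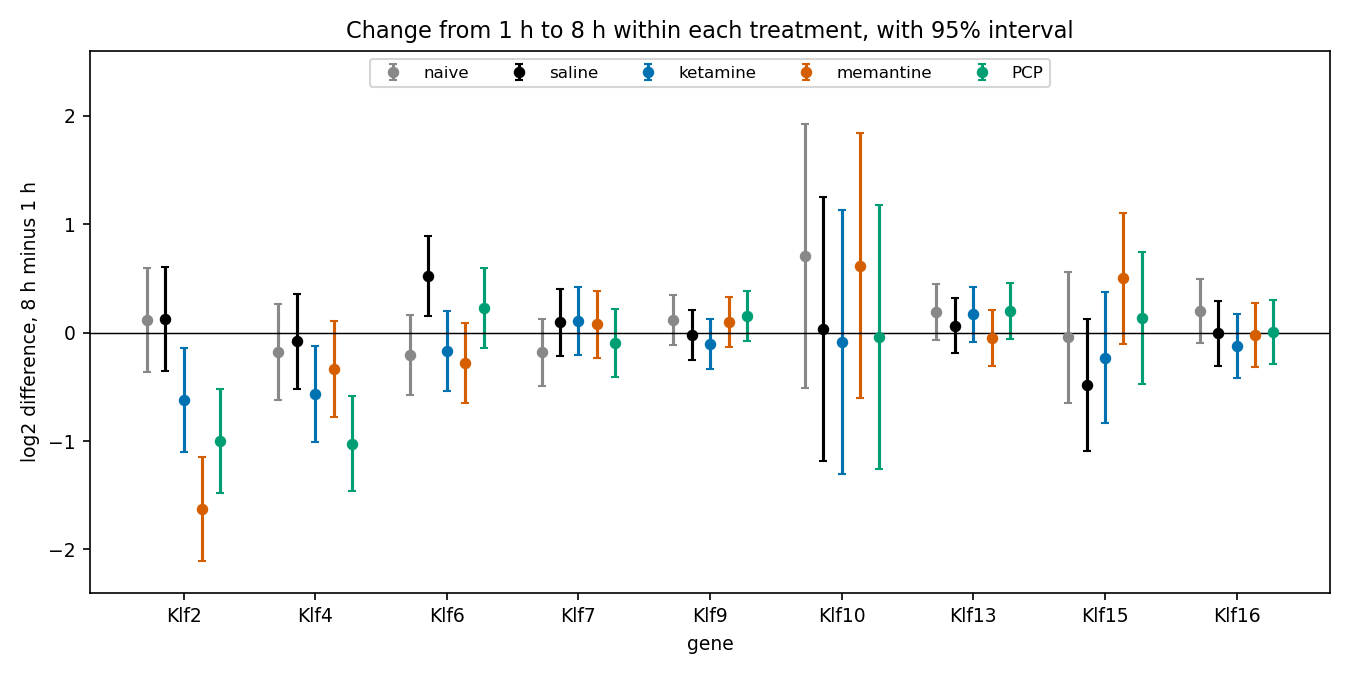
Difference between 8 h and 1 h within each treatment (vertical axis, log2, 3 arrays a group) for the 9 members, with 95% intervals. Klf2 lies at -1.62, -1.0 and -0.62 with memantine, PCP and ketamine and near 0 in saline and naive mice (0.12 and 0.11). No interval of Klf7, Klf9, Klf10, Klf13, Klf15 or Klf16 excludes 0.

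The genes whose group means ran most like those of Klf2 over the 20 groups, among 11955 brighter genes, were Egr4 (Pearson r = 0.87), Sik1 (0.87), Gadd45g (0.84), Junb (0.83) and Dusp5 (0.83). For Klf4 they were H4c17 (0.75), Nans and Czib (0.74 each) and Cdc45 and Naprt (0.73 each). For Klf9 the closest were Atp10a and Lyrm2 (0.76 each), Fam214a (0.75) and Adipor2 and Wfdc1 (0.74 each), and for Klf15 Nrn1l (0.75), Sapcd1 (0.73), Slc29a1 (0.72), Cotl1 (0.70) and Rnase1 (0.68). Between members, the group means of Klf2 and Klf4 correlated at 0.64 and those of Klf9 and Klf15 at 0.62. Klf2 with Klf9 and with Klf15 gave -0.06 and -0.23, and Klf4 with the same genes 0.07 and 0.22. Klf7 with Klf13 gave -0.72, larger in size than any of these. The points share arrays and normalization, so these are descriptions.

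Immediate early genes are the fast transcripts of neuronal activity. Of 18 measured, 6 were lower at 8 h than at 1 h on average over saline and the drugs and 0 were higher, against 0.135% of all probes lower, with a median of -0.23 against 0.00 over all probes. They were Fos (-1.7), Egr2 (-1.03), Arc (-0.87), Egr4 (-0.66), Fosb (-0.61) and Egr1 (-0.60). Fos was also lower in saline mice alone, with a difference of -1.55 (limma adjusted p = 0.00286), where Klf2 differed by 0.12. Against saline at 1 h none of the 18 passed with any drug, and with memantine at 2 h 1 did, Egr4 (1.02, adjusted p = 0.00112), against 0.053% of all probes higher.

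Glucocorticoid receptor targets, the kind of gene that Klf9 and Klf15 are by background, were higher with memantine in part. Of 23 other targets measured, 9 were higher with memantine on the mean of 4 times and 0 lower, against 0.0243% of all probes higher, with a median of 0.32 against 0.00 over all probes. Plin4 (1.10), a lipid droplet protein, Cdkn1a (0.82), a cell cycle inhibitor, Sgk1 (0.73), a kinase, and Tsc22d3 (0.45), a mediator of glucocorticoid action, were among them, with Sult1a1, Ddit4, Mfsd2a, Dusp1 and Nfkbia. Ketamine and PCP each gave 1 of 23, Plin4 at 0.70 and 0.71, against 0.00221% of all probes higher in each. Several of these targets were picked by the study from arrays that include these, so the count is not independent evidence of a direction. Beside them stand 0.10 (SE 0.07) for Klf9 and 0.11 (SE 0.16) for Klf15.

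Relatives and partners were read by the adjusted test, which few probes passed. On the mean of 4 times 0.00957% of all tests were called. At 8 h against 1 h over saline and the drugs 0.0751% of all probes were higher and 0.135% lower. Missing this test does not show that a gene stayed level. None of the 8 other Klf genes, 6 of them near background, passed on the mean of 4 times with any drug or at 8 h against 1 h, nor did any of 8 SP factors, 9 corepressors and coactivators such as Sin3a, Sin3b and Hdac3, or 4 genes upstream of Klf2 and Klf4 such as Map2k5, Mapk7 (ERK5) and Mef2d. Of 8 endothelial targets of KLF2 and KLF4 none passed either. Edn1, endothelin, which KLF2 lowers in cultured endothelial cells, was at 0.53, 0.71 and 0.49 against saline at 1 h with ketamine, memantine and PCP (SE 0.18, limma adjusted p = 1.00, 1.00 and 0.997).

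Of 8 metabolic genes known as targets of KLF15 in liver and muscle, Prodh, a proline-degrading enzyme, rose from 1 to 8 h by 0.38 (adjusted p = 0.000579) and Acot1, a thioesterase, differed by -0.33 (adjusted p = 0.0368), averaged over saline and the drugs, where 0.0751% of all probes were higher and 0.135% lower. Of 16 clock genes 2 passed in saline mice and 2 in naive mice, against 0.0133% and 0.0155% of all probes, and Dbp, an output of the clock, was higher at 8 h by 1.04 and 0.98. Klf9 and Klf15, which follow the day in some tissues, differed between these times by -0.02 and -0.48 in saline mice and by 0.12 and -0.04 in naive mice. None of these 4 passed.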

How the data were processed

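The authors deposited BeadStudio intensities of 60 hippocampal arrays (Illumina MouseWG-6 v2): linear, averaged over beads, not normalized, with no control probes or detection p-values used here. The authors also deposited log2 values, described as background subtracted and quantile normalized. Those log2 values had a median of 7.82 on each array, lay within a mean of 0.0554 of quantile normalized log2 intensities with no background step, and served as an alternative. Intensities were corrected by normexp (offset 50), quantile normalized and log2-transformed in R 4.3.3 with limma 3.58.1. Gene symbols came from the platform annotation, in which 34885 probes carry 1 symbol, 18 several and 10378 none. A gene is read from its brightest probe. Linear models on group means were fitted over 60 arrays for single times and over 24 for the mean of 4 times. The time, drug and interaction F tests used the saline and drug arrays, and p-values were adjusted by Benjamini-Hochberg over all 45281 probes. Intervals are 95% from the moderated t distribution.

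Arrays of a group hold separate pools of 2 mice, and their number limits the precision. Replicate numbers did not pair arrays (mean correlation of deviations -0.01 for the same number, 0.19 for the same slide). The members and lists were chosen with earlier results of these data known. All 9 members are named, with, of each list, genes that passed and up to 4 of the smallest p in a comparison, and the 5 genes most like Klf2, Klf4, Klf9 and Klf15. Partners given as examples are named without values. Alternatives covered background correction, offset, the deposited values, bright probes, slide, replicate number, variances, high-background arrays, choroid plexus markers, other probes, other controls and each array left out. The fits were tested on simulated data.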

Additional observations from a re-analysis of the deposited data

How the results depend on the processing

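Counts of members called kept within 1.5 times of their value in all but 9 of their results over 13 alternatives, and in all but 17 with 1 of the 60 arrays left out in turn. Most of these counts were 0 in the main fit, where few probes passed at all, so staying at 0 says little about stability. The time factor count moved in 5 of its 11 alternatives and that of 8 h against 1 h by treatment in 3 of 11. Memantine at single times gave 0 against saline and 1 against naive mice, Klf2 at 1 h, where 7 of 45281 probes were called. Against saline it gave between 0 and 1 with an array left out (1 without memantine 8 h replicate 1). The time factor gave 1 and, with the deposited log2 values, the brighter 50% of probes, slide as a fixed or random block, or trended and robust variances, 2. With an array left out it gave between 1 and 2, and 2 without any 1 of 13 arrays (ketamine 1 h replicate 1, saline 1 h replicate 3, saline 2 h replicates 2 and 3, saline 4 h replicate 3, memantine 1 h replicate 2, 2 h replicates 1 and 2, 4 h replicate 2 and 8 h replicate 2, and PCP 2 h replicates 1 and 3 and 4 h replicate 2). The difference between 8 and 1 h by treatment gave 1 and, with the brighter 50% of probes or slide as a fixed or random block, 2. With an array left out it gave between 1 and 2 (2 without memantine 8 h replicate 3 or naive 8 h replicate 1). Pairs of drugs gave 0, and between 0 and 1 with an array left out (1 without memantine 8 h replicate 1). The causes were not tested. Of 25 single values none changed direction. The background step moved Klf4 by over 1.5 times, from -0.50 at 8 h over saline and the drugs to -0.31 on the deposited log2 values and -0.33 without background correction.

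Replicate numbers are shared by the groups but did not pair arrays. With the replicate block the time factor called 1 member and 8 h against 1 h called 1, as without it, and no other count changed. Klf2 with memantine stayed at -1.62 (limma adjusted p = 0.000452) and Klf4 over saline and the drugs at -0.50 (adjusted p = 0.0262). Dim signal limits Klf15, Klf4 and Klf10, whose main probes lie close to the level of receptor probes.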
